A study of Homo sapiens with 12 samples.

Results

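CCL3, CCL4 and CCL22 are 3 chemokine genes, and their mRNA was followed in a human lymphoma line with and without engagement of its B cell receptor. The 3 genes were taken by symbol from the autosomal rows of a table of 60675 genes, and all 3 were among the 15112 genes with enough reads to be tested. CCL3 and CCL4 each have a near-identical copy, CCL3L3 and CCL4L2, which is described beside them. Cells of U-2932, a line derived from a diffuse large B cell lymphoma, carried stable expression of Roquin2 in 1 of 2 forms, WT or Y691F. Roquin2, the product of RC3H2, binds stem-loops in mRNAs and hastens their decay, and Y691F replaces a tyrosine of it by phenylalanine. Cells of each form were left untreated or were given F(ab')2-IgM, an antibody fragment that binds the receptor's immunoglobulin, at 10 µg/ml for 12 h. This gave 4 groups, 2 per form, each with 3 libraries described as independent biological replicates. All groups carried an introduced Roquin2, no group without one was analysed here, and the sources used here do not say whether each form was 1 clone or a pool of cells.

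Chemokines are small secreted proteins that steer leukocytes through G protein-coupled receptors. CCL3 and CCL4 (MIP-1 alpha and MIP-1 beta) attract T cells and monocytes, CCL3 in part through the receptor CCR1, and activated B cells are a known source of both. CCL22 acts on CCR4, which marks type 2 helper and regulatory T cells, and germinal center B cells are known to make it on contact with helper T cells. Transcription of these genes is known to follow NF-kB and calcium signals from the B cell receptor, and cytokine and chemokine mRNAs are often short-lived, with AU-rich or stem-loop elements in their 3′ ends that decay factors of the Roquin, Regnase and ZFP36 families bind.

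The promoters of CCL3 and its copy CCL3L3 are shown because both mRNAs changed in the same direction in all 5 comparisons, and that of CCL22 because it had the smallest changes of the 3. In RefSeq's annotation of GRCh38.p14, these windows held the 250 bases before the outermost listed start site: chr17:36090144-36090393 on the minus strand for CCL3, chr17:36196759-36197008 on the minus strand for CCL3L3, and chr16:57358533-57358782 on the plus strand for CCL22. Capitals mark the letters TATAAA in the CCL3 and CCL3L3 windows and, in the CCL22 window, letters matching the NF-kB motif.
CCL3: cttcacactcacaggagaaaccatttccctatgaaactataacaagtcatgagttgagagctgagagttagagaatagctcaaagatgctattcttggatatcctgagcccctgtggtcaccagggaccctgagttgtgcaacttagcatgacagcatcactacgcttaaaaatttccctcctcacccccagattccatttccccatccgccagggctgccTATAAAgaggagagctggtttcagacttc
CCL3L3: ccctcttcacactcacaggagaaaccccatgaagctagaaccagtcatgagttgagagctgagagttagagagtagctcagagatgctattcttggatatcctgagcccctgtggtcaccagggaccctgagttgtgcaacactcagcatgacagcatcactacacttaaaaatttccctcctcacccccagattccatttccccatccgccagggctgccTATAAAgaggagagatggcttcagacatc
CCL22: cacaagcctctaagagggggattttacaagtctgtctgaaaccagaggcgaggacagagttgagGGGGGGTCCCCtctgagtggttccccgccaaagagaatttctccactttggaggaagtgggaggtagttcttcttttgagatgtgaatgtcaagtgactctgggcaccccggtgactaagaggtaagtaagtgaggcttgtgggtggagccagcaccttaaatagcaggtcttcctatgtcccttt
The CCL3 and CCL3L3 windows were identical at 233 of 244 aligned bases (95.5%), with 11 mismatches and 2 gaps. TATAAA began 29 bases before the start in both. The CCL22 window held 2 overlapping matches to the NF-kB motif, which began 186 and 185 bases before the start and read as the motif on both strands. Searched on both strands of 35116 RefSeq windows of 300 bases, TATAAA was present in 11.5% and the NF-kB motif in 11.3%. The AP-1 motif TGANTCA (7.71% of windows) and the CRE motif TGACGTCA (1.85%) were not among the letters of these 3 windows. A match describes letters and was not tested as a binding site. RefSeq's table had no entry for CCL4 or CCL4L2.

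Because the copies are so alike, the stretches that tell each pair apart are shown next, as 30 bases of the coding sequence from GENCODE 29, with the bases that differ in capitals.
CCL3: agcccGgtgtcatcttcctaaccaagCgaA
CCL3L3: agcccAgtgtcatcttcctaaccaagAgaG
CCL4: AgcaagcaagtctgTgctgaTcccagtgaA
CCL4L2: GgcaagcaagtctgCgctgaCcccagtgaG
CCL3 (chr17:36088256-36090169, minus strand, ENSG00000277632) and CCL3L3 (chr17:36194869-36196758, minus strand, ENSG00000276085) had mRNAs that matched at 748 of 778 aligned bases (96.1%). CCL4 (chr17:36103590-36105621, plus strand, ENSG00000275302) and CCL4L2 (chr17:36210924-36212878, plus strand, ENSG00000276070) matched at 641 of 667 aligned bases (96.1%). Coordinates are on GRCh38, each of the 5 transcripts used has 3 exons, and GENCODE 29 names the CCL3L3 row CCL3L1. Of all runs of 50 bases along the mRNA, 9.88% of those of CCL3 and 21.3% of those of CCL4 also occurred in another gene, against 0.347% for CCL22 (chr16:57358772-57366190, plus strand, ENSG00000102962). For runs of 100 bases the shares were 0% for CCL3, 5.59% for CCL4 and 0% for CCL22. The sources used here give neither the read length nor how reads matching both copies were assigned, so single values of CCL4 and CCL4L2 in particular are uncertain and their sum is given as well.

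The libraries held 16465393 to 21478790 counts in genes. RC3H2 mRNA was higher in Y691F than in WT cells, at 208.7 ± 0.880 against 110.5 ± 1.08 CPM (counts scaled to a common library size) in untreated cells (SD, n = 3); gene counts do not separate the introduced from the cell's own transcript. All 6 B cell markers were detected in every group, with a summed level of 2135 to 3277 CPM. The summed T and NK cell markers lay between 0.599 and 4.89 CPM, those of monocytes and macrophages between 0.756 and 1.58 CPM, and those of dendritic cells between 0.318 and 1.50 CPM. CD2, CD3D, GNLY, NKG7, CD163, FCGR3A, MARCO, S100A8, S100A9, CLEC10A and FCER1A were at 0 in every group. The markers of other cells were highest in Y691F cells for the T and NK list, where NCAM1 led, and their part in the results was not tested. In bulk RNA, fewer cells making a transcript and less of it per cell cannot be told apart, and p-values measure only the spread between these libraries.

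With engagement of the receptor in WT cells, all 3 chemokines rose: CCL3 by 371-fold, CCL4 by 88.3-fold and CCL22 by 3.44-fold. CCL3, a ligand of CCR1, had 0.901, 1.34 and 0.516 CPM in the 3 untreated libraries and 360, 350 and 356 CPM in the 3 with IgM, scaled by edgeR's TMM factors. The groups were far apart, and the untreated values rested on 17, 30 and 9 reads. The log2 fold change of CCL3 was 8.53 (SE 0.07, adjusted p = 1.19e-89, edgeR's quasi-likelihood test with Benjamini-Hochberg adjustment over all tested genes, as for every adjusted p here), and its rise ranked 7 of the 15112 tested genes.

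CCL4, encoded beside CCL3, had 0.265, 0.267 and 0.287 CPM untreated (5, 6 and 5 reads) and 25.1, 23.6 and 25.3 CPM with IgM. The 3 untreated libraries lay close together and well below the stimulated ones, for a log2 fold change of 6.46 (SE 0.16, adjusted p = 4.44e-54). With the counts of CCL4 and CCL4L2 summed, the change was smaller, at 5.22 on the log2 scale. CCL22, the CCR4 ligand, started from a higher count, with 2.76, 2.80 and 3.04 CPM untreated and 9.88, 10.1 and 9.56 CPM with IgM. Its groups did not overlap either, and its log2 fold change was 1.78 (SE 0.13, adjusted p = 8.88e-23). All 3 members were called higher here, where 38.4% of the tested genes were called higher and 38.5% lower. Ordered by log2 rise, CCL4 stood at rank 43 and CCL22 at rank 543.

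**Figure D1:**
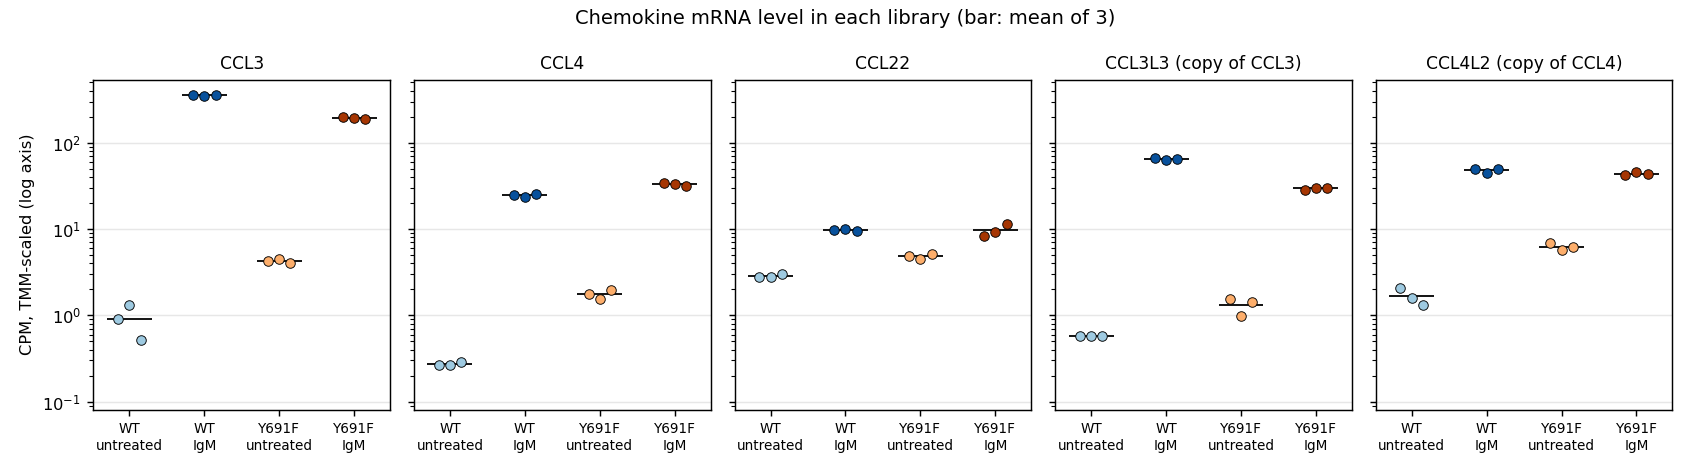
CPM (TMM-scaled, log axis) of CCL3, CCL4, CCL22 and the copies CCL3L3 and CCL4L2 in each of the 12 libraries; points are libraries and bars the mean of 3. Each gene is lowest in WT untreated cells, and CCL3 with IgM is near 355 CPM in WT and near 193 CPM in Y691F cells.

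In untreated cells the Y691F form already had more of all 3 mRNAs than the WT form: 4.44-fold for CCL3, 6.32-fold for CCL4 and 1.69-fold for CCL22. CCL3 had 4.28, 4.45 and 4.03 CPM in the untreated Y691F libraries (93, 86 and 80 reads), all above the WT maximum of 1.34 CPM. Its log2 difference was 2.15 (SE 0.18, adjusted p = 6.92e-18). CCL4 had 1.75, 1.55 and 1.96 CPM in the same libraries (38, 30 and 39 reads), against no more than 0.287 CPM in WT. The log2 difference of CCL4 was 2.66 (SE 0.30, adjusted p = 5.37e-12), and 2.05 with its copy summed, a move of over 1.5 times in fold. CCL22 had 4.92, 4.50 and 5.09 CPM, above the WT range of 2.76 to 3.04 CPM, for a log2 difference of 0.76 (SE 0.14, adjusted p = 9.80e-06). The libraries of the 2 forms did not overlap for any of the 3 genes. These 3 calls stand against 15.1% of the tested genes called higher and 16.1% called lower. The WT side of these differences rests on few reads, 56 of CCL3 and 16 of CCL4 over 3 libraries.

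IgM raised all 3 chemokines in Y691F cells as well. CCL3 reached 196, 192 and 190 CPM, CCL4 34.5, 33.0 and 31.2 CPM, and CCL22 8.34, 9.23 and 11.4 CPM. Every stimulated library lay above every untreated Y691F library for each gene. The rise was 45.3-fold for CCL3 (log2 5.50, SE 0.06, adjusted p = 5.13e-81), 18.7-fold for CCL4 (log2 4.22, SE 0.10, adjusted p = 1.72e-54) and 1.98-fold for CCL22 (log2 0.98, SE 0.11, adjusted p = 6.23e-13). With its copy summed, CCL4 rose by 3.25 on the log2 scale. In this comparison 37.1% of the tested genes were called higher and 38.7% lower, and the members ranked 43, 95 and 1260 by log2 rise in the order CCL3, CCL4, CCL22.

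With IgM the 3 chemokines stood in 3 different relations between the forms. CCL3 was lower in Y691F than in WT cells, at 193 ± 3.37 against 355 ± 5.25 CPM (SD, n = 3), a 1.84-fold difference (log2 -0.88, SE 0.03, 95% interval -0.94 to -0.82, adjusted p = 1.84e-40). CCL4 as counted was higher in Y691F, at 32.9 ± 1.64 against 24.7 ± 0.933 CPM, a 1.34-fold difference (log2 0.42, SE 0.06, interval 0.29 to 0.54, adjusted p = 2.99e-08). The libraries of the forms did not overlap for either gene. CCL22 had 9.66 ± 1.58 CPM in Y691F cells and 9.85 ± 0.267 CPM in WT cells, with overlapping libraries, a log2 difference of -0.040 and an interval of -0.24 to 0.16 (adjusted p = 0.789). The larger SD in Y691F came from values of 8.34, 9.23 and 11.4 CPM. So 1 member was called higher and 1 lower, where 21.9% of the tested genes were called higher and 20.2% lower.

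The CCL4 difference with IgM did not hold once the copies were summed. CCL4 plus CCL4L2 came to 76.7 ± 2.00 CPM in Y691F and 72.5 ± 4.02 CPM in WT (SD, n = 3), with overlapping libraries, and the log2 difference of the sum was 0.083 (SE 0.04, adjusted p = 0.131). CCL3 plus CCL3L3 came to 223 ± 2.55 CPM in Y691F and 420 ± 6.88 CPM in WT, a log2 difference of -0.92 (adjusted p = 2.24e-43). The copy CCL3L3 on its own was lower in Y691F with IgM by 2.19-fold (log2 -1.13, adjusted p = 1.58e-32), and CCL4L2 was not called (log2 -0.12, interval -0.23 to -0.016, adjusted p = 0.0577).

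The ratio of CCL3 to CCL4 needs no scaling between libraries. As log2 of the CPM ratio, it was 3.85 ± 0.0378 in WT with IgM and 2.55 ± 0.0478 in Y691F with IgM (SD, n = 3). The difference was -1.30, every Y691F library was below every WT library, and the exact two-sided permutation test gave p = 0.1, the smallest that 3 against 3 libraries allow. For the copies, CCL3L3 over CCL4L2, the values with IgM were 0.44 in WT and -0.56 in Y691F (exact permutation p = 0.1). In untreated cells the CCL3 to CCL4 ratio was 1.65 ± 0.744 in WT and 1.28 ± 0.242 in Y691F, and the libraries overlapped (difference -0.36, exact permutation p = 0.5).

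**Figure D2:**
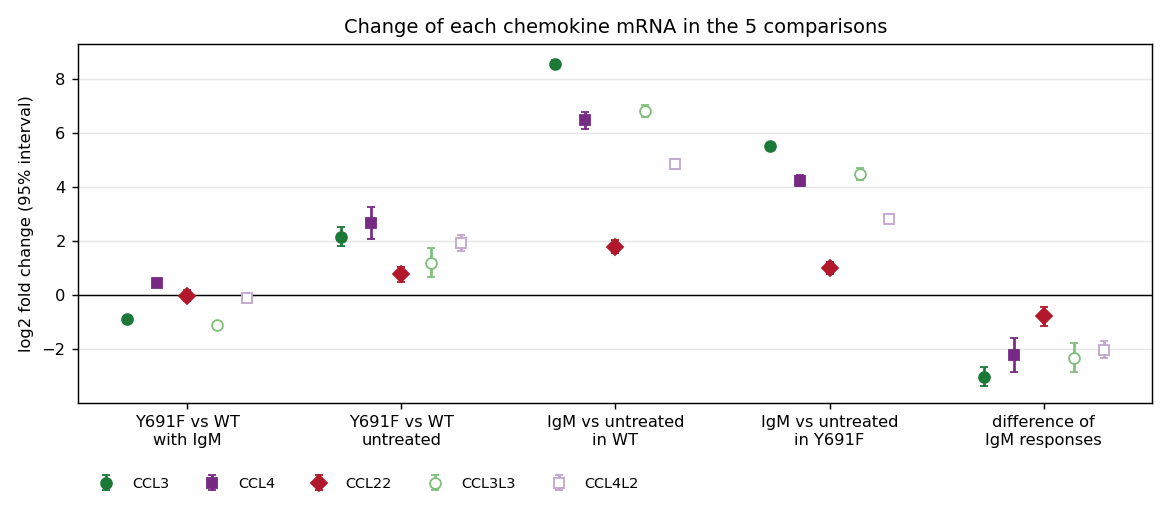
Log2 fold change with its 95% interval (y axis) of the 3 chemokines (filled) and the 2 copies (open) in the 5 comparisons (x axis). All 5 genes lie above 0 for IgM in each form and for untreated Y691F against WT; with IgM, CCL3 is at -0.88, CCL4 at 0.42 and CCL22 at -0.040.

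On the log2 scale the response to IgM was smaller in Y691F than in WT cells for all 3 genes, by an interaction term that compares the 2 responses. As a rise in CPM it was not smaller for CCL4 as counted. That gene went from 0.273 to 24.7 CPM in WT and from 1.76 to 32.9 CPM in Y691F. The difference of the log2 responses, Y691F minus WT, was -3.03 for CCL3 (SE 0.18, adjusted p = 4.53e-26), -2.24 for CCL4 (SE 0.32, adjusted p = 1.35e-08) and -0.80 for CCL22 (SE 0.18, adjusted p = 1.84e-04). Summed with their copies, CCL3 stood at -2.78 and CCL4 at -1.96. All 3 members were called lower, where 11% of the tested genes were called lower and 14.7% higher. By size of the negative difference they ranked 24, 49 and 611 of 15112. This term joins a level that was higher in untreated Y691F cells for all 3 genes to a level with IgM that was lower for CCL3, higher for CCL4 as counted and overlapping for CCL22.

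Levels between genes were compared on the RPKM scale, the depth- and length-scaled count that the authors deposited. In untreated WT cells CCL22 was at 0.834 RPKM, CCL3 at 0.523 ± 0.235 and CCL4 at 0.114 RPKM; the highest CCL3 library, at 0.764, lay just under the lowest CCL22 library, at 0.794. With IgM the order became CCL3 at 185 ± 1.52, CCL4 at 9.42 ± 0.303 and CCL22 at 2.61 ± 0.0824 RPKM. In untreated Y691F cells CCL3 led at 2.43 ± 0.139 RPKM, CCL22 was at 1.41 and CCL4 at 0.735 RPKM. With IgM, Y691F cells had 100.05 ± 0.817 RPKM of CCL3, 12.5 ± 0.505 of CCL4 and 2.56 ± 0.444 of CCL22. The gene lengths implied by counts, RPKM and library totals were 1836, 2497 and 3599 bases for CCL3, CCL4 and CCL22. They hold only up to a factor common to all genes of a library, so only their proportions can be read. The GENCODE 29 transcripts used had 778, 904 and 2929 bases, in other proportions. Per kilobase of those transcripts, an alternative added after seeing the data, the untreated orders turned. CCL3 then stood at 1.18 ± 0.527 CPM per kilobase and CCL22 at 0.979 ± 0.0521 in untreated WT cells, with overlapping libraries. In untreated Y691F cells CCL4 stood at 1.94 ± 0.227 and CCL22 at 1.65 ± 0.102, also with overlap. With IgM the order CCL3, CCL4, CCL22 was the same with both lengths in each form. CCL4 is given here without CCL4L2. Ordered across conditions, each gene was lowest in WT untreated and next in Y691F untreated. The top level was WT with IgM for CCL3 and Y691F with IgM for CCL4 as counted, while the 2 stimulated groups of CCL22 overlapped.

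Both copies rose with IgM in each form. CCL3L3 went from 0.578 ± 0.00463 to 64.9 ± 1.64 CPM in WT (log2 6.79) and from 1.32 ± 0.301 to 29.6 ± 0.874 CPM in Y691F (log2 4.47; SD, n = 3). CCL4L2 went from 1.66 ± 0.377 to 47.9 ± 3.09 CPM in WT (log2 4.83) and from 6.27 ± 0.557 to 43.8 ± 1.65 CPM in Y691F (log2 2.80). All 4 rises were called, with adjusted p of at most 8.85e-51. Untreated Y691F cells had more of both copies than untreated WT cells, by 1.19 on the log2 scale for CCL3L3 (adjusted p = 2.20e-04) and 1.91 for CCL4L2 (adjusted p = 3.17e-19). The interaction was -2.32 for CCL3L3 (adjusted p = 2.59e-11) and -2.03 for CCL4L2 (adjusted p = 6.58e-19).

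The share of counts given to the copy was not constant. CCL4L2 took 85.5 ± 3.25% of the CCL4 plus CCL4L2 counts in untreated WT cells and 66.0 ± 0.620% with IgM, then 78.1 ± 1.95% in untreated Y691F cells and 57.1 ± 1.72% with IgM (SD, n = 3). With IgM the WT libraries lay between 65.3% and 66.4% and the Y691F libraries between 55.1% and 58.2%, without overlap. CCL3L3 took 40.7 ± 11.3% of the CCL3 plus CCL3L3 counts in untreated WT cells, from 30.2% to 52.6%, and 15.4 ± 0.142% with IgM. In Y691F the share of CCL3L3 was 23.6 ± 4.78% untreated and 13.3 ± 0.534% with IgM. CCL4L2 had more counts than CCL4 in all 12 libraries, while CCL3 exceeded CCL3L3 in 11 of the 12.

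**Figure D3:**
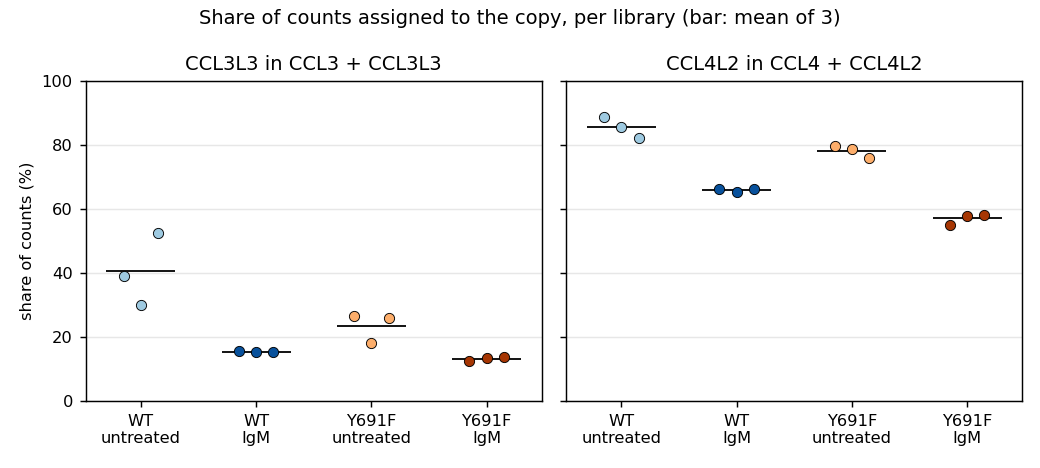
Share in percent (y axis) of the counts of each pair that was assigned to the copy, CCL3L3 or CCL4L2, in each library of the 4 groups; bars are means of 3. CCL4L2 holds 55.1% to 58.2% in Y691F with IgM and 65.3% to 66.4% in WT with IgM.

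Other genes of the deposited table overlap some of these spans. TBC1D3B spans CCL3L3 on the same strand and CCL4L2 on the opposite strand, with 12 to 31 reads per library. AC069363.1, opposite CCL3, had 0 or 1 read per library, and AC131056.3, opposite CCL3L3, had 0. The library protocol keeps strand; the sources used here do not say whether the counting used it.

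The 3′ ends carried different elements, printed as the motif in capitals with its flanks, because Roquin and ZFP36 proteins are known to read elements of these ends. In the last 400 bases of the GENCODE 29 transcript, CCL3 held 4 copies of ATTTA, the core of AU-rich elements, CCL4 held 2 and CCL22 held 0. After the coding sequence come 416 bases in CCL3, 309 in CCL4 and 2602 in CCL22. The window thus left most of that part of CCL22 unsearched and reached into the coding sequence of CCL4. Among 19541 genes, 49.9% had at least 1 copy and 3.33% had at least 4. TTCNNNGAA, a pattern with a 3-base loop and 3 bases on each side that can pair, occurred 1 time in CCL4 and 0 times in CCL3 and CCL22, against 12.5% of genes with any.
CCL3, 254 bases before the end: ttaaattttaATTTAtttatactat
CCL4, 144 bases before the end: catttccattATTTAtattagttta
CCL4, 288 bases before the end: acaggaagtcTTCAGGGAAggtcacctga
The first CCL3 site overlaps the next ATTTA by 1 base. CCL3L3 held 4 copies of ATTTA like CCL3, and CCL4L2 held 1 copy of ATTTA and 1 of TTCNNNGAA. These are letters in a window of fixed length, and no binding or decay was measured.

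Among the other chemokine ligands few were expressed. Of 43 ligands 21 had any read and 8 were tested, the 3 members among them. CCL5, which attracts T cells and monocytes, rose with IgM by 2.12 on the log2 scale in WT (adjusted p = 1.70e-06) and 1.59 in Y691F (adjusted p = 1.10e-05). It rested on 14 reads untreated and 54 with IgM in WT, and on 26 and 68 in Y691F. CCL17, the other ligand of CCR4, fell by 2.70 in WT (adjusted p = 4.99e-10) and by 1.97 in Y691F (adjusted p = 6.58e-04), on the log2 scale, while CCL22 rose. CCL17 was low, with mean levels of 1.58 CPM in WT untreated, 0.239 in WT with IgM, 0.543 in Y691F untreated and 0.127 in Y691F with IgM. In untreated cells CCL17 was lower in Y691F, by a log2 difference of -1.52 (adjusted p = 1.24e-05), where CCL22 was higher. CCL28, a ligand of CCR10, fell by 1.38 in WT and by 1.34 in Y691F on the log2 scale, and CXCL16 was called in none of the 5 comparisons.

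CXCL8, a neutrophil chemokine, had 0 reads in WT untreated libraries and 40 in WT with IgM, at least 15.4-fold higher against a floor of 3 reads over the group. In Y691F it had 3 reads untreated and 13 with IgM, a ratio of 5.04 with a counting interval of 1.38 to 27.6. Over the 8 tested ligands, 5 were called higher and 2 lower with IgM in either form, with a median log2 fold change of 1.95 in WT and 1.29 in Y691F. Of all tested genes, 38.4% were called higher and 38.5% lower in WT, and 37.1% and 38.7% in Y691F. CXCL8 is in the ligand counts, although it passed the filter on low counts only through WT with IgM. Also in them are CCL5, which passed only through the groups with IgM, and CCL17, which passed only through the untreated groups. The ligand counts therefore support nothing about ligands in general. With IgM, 1 ligand was higher and 2 lower in Y691F than in WT (median -0.082), where 21.9% and 20.2% of all tested genes were. In untreated cells 3 ligands were higher and 1 lower (median 0.79), where 15.1% and 16.1% of all tested genes were. For the interaction 4 ligands were lower, the 3 members and CXCL8, and 0 higher (median -0.67), where 11% and 14.7% of all tested genes were. The medians over all tested genes were near 0, between -0.011 and 0.0069.

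CCR1, a receptor of CCL3, was not detected at this depth, and neither was CCR8: both had 0 reads in all 12 libraries, where a count of 0 allows up to 3 reads. CCR4, the receptor of CCL22, was low, at 0.505 CPM in WT untreated, 0.650 in WT with IgM, 0.751 in Y691F untreated and 0.606 in Y691F with IgM, and was called in no comparison (30, 33, 46 and 31 reads). Of 23 receptors 7 were tested. CCR7, which guides B cells to the T cell zone, rose by 8.94 on the log2 scale in WT and by 6.78 in Y691F, with an interaction of -2.16 (adjusted p = 1.15e-21). CXCR5, which guides B cells into follicles, rose by 0.52 in WT and 0.38 in Y691F, and was higher in Y691F than in WT both untreated (0.70) and with IgM (0.55).

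CCR10 fell by 2.11 with IgM in WT and by 1.30 in Y691F on the log2 scale, and CXCR4 fell by 0.17 and by 0.36. CXCR3 dropped from 81 to 3 reads with IgM in WT (ratio 23.4, counting interval 7.72 to 116), and the scavenging receptor ACKR3 from 62 to 0 reads, at least 17.9-fold lower. In Y691F, CXCR3 went from 129 to 5 reads and fell by 4.38 on the log2 scale, and ACKR3 went from 65 to 12 reads and fell by 2.19. Both passed the filter on low counts only through the untreated groups and are in the counts that follow. Over the 7 receptors, 2 were called higher and 4 lower with IgM in either form, with median log2 fold changes of -0.17 in WT and -0.36 in Y691F. Of all tested genes, 38.4% were called higher and 38.5% lower in WT, and 37.1% and 38.7% in Y691F. Between the forms, 3 receptors were higher and 1 lower with IgM (median 0.55), where 21.9% and 20.2% of all tested genes were. Untreated, 5 receptors were higher and 0 lower (median 0.62), where 15.1% and 16.1% of all tested genes were. For the interaction 2 receptors were higher, CCR10 and ACKR3, and 3 lower (median -0.15), where 14.7% and 11% of all tested genes were. The ACKR3 call rests on 0 reads in WT with IgM.

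**Figure D4:**
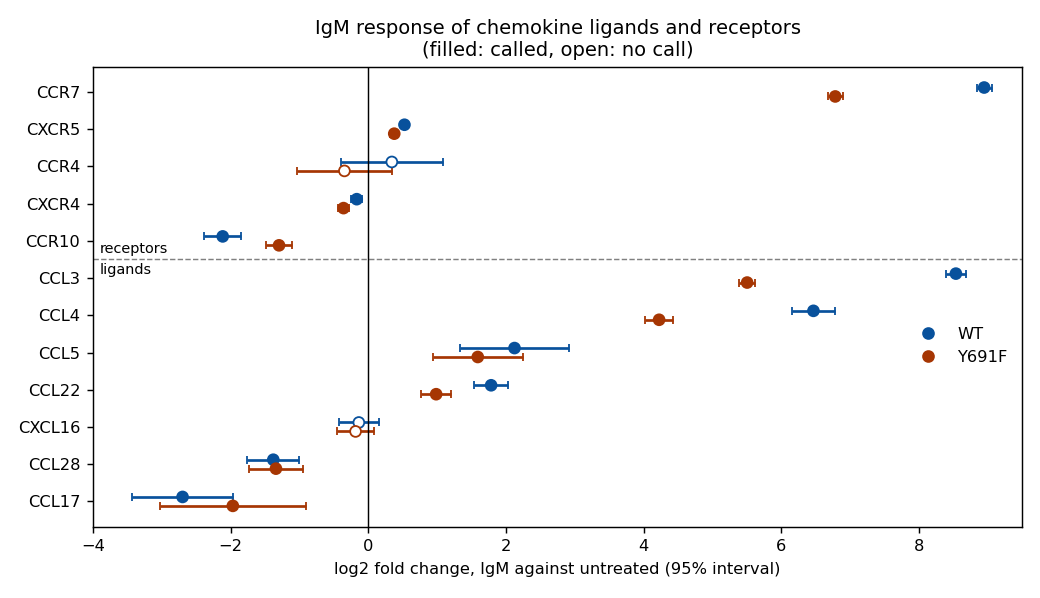
Log2 fold change with IgM and its 95% interval (x axis) for tested chemokine ligands (below the dashed line) and receptors (above it) in WT (blue) and Y691F (brown) cells; filled points are called and open points are not, and CXCL8, CXCR3 and ACKR3 are left out because a group had 3 reads or fewer. CCL3 and CCR7 lie farthest to the right, at 8.53 and 8.94 in WT, and CCL17 lies left of 0 in both forms.

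Of 25 NF-kB and calcineurin-NFAT genes, all tested, 15 were called higher and 7 lower with IgM in WT (median log2 fold change 0.19), where 38.4% of all tested genes were called higher and 38.5% lower. In Y691F 16 were higher and 7 lower (median 0.21), where 37.1% and 38.7% of all tested genes were. NFKB1, the p105 and p50 subunit gene, rose by 2.25 in WT and 1.86 in Y691F, REL by 1.98 and 1.79, and NFKBIE, an inhibitor of NF-kB, by 2.62 and 1.59, on the log2 scale. Between the forms with IgM, 5 were higher and 11 lower (median -0.059), where 21.9% and 20.2% of all tested genes were. There 3 of the 4 genes with the smallest adjusted p were lower in Y691F, with log2 differences of -1.59 for NFKBIZ, -0.93 for NFKBIE and -1.01 for TNFAIP3, and BCL3, a nuclear partner of p50, was higher by 1.13. Untreated, 8 were higher and 5 lower (median 0.0054), where 15.1% and 16.1% of all tested genes were. For the interaction 5 were higher and 10 lower (median -0.13), where 14.7% and 11% of all tested genes were.

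Of 24 genes known to respond to the B cell receptor, 23 were tested. Of these, 21 rose and 2 fell with IgM in WT (median 2.17), while 18 rose and 5 fell in Y691F (median 2.04), beside the same shares of all tested genes as above. In untreated cells 18 were higher in Y691F and 2 lower (median 0.54), with IgM 5 were higher and 14 lower (median -0.24), and for the interaction 1 was higher and 19 lower (median -0.82). The shares of all tested genes in these comparisons are those given for the NF-kB and calcineurin-NFAT genes. The 4 genes with the smallest adjusted p for IgM in both forms were RGS1, EGR1, NR4A1 and NR4A3. EGR1, an immediate early transcription factor, rose by 6.59 in WT and 4.20 in Y691F, and NR4A3, an orphan nuclear receptor, by 6.87 and 4.97. RGS1, a brake on G protein signalling, rose by 7.26 and 6.23, and NR4A1 by 4.57 and 3.91. With IgM, RGS1 and EGR1 were lower in Y691F, by log2 differences of -0.89 and -1.10. NR4A1 and NR4A3 went the other way. Their means with IgM were 1214 and 418 CPM in Y691F, against 737 and 348 CPM in WT. The counts of this list include DUSP4, which passed the filter on low counts only through the groups with IgM. It had 0.0177 and 0.0340 CPM untreated in WT and Y691F, against 15.3 and 19.2 with IgM. CD69, also counted, was low untreated, at 0.229 and 0.547 CPM, against 8.99 and 5.41 with IgM. The list was drawn up from general knowledge with earlier results of these data known, so its direction is a description.

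Of 14 mRNA decay factors, all tested, 8 rose and 5 fell with IgM in WT (median 0.082), and 8 rose and 4 fell in Y691F (median 0.12). Of all tested genes, 38.4% were called higher and 38.5% lower in WT, and 37.1% and 38.7% in Y691F. The falls in WT, 5 of 14, are near that share. ZC3H12B, among the 14, was low throughout. Its means were 1.20 and 1.54 CPM untreated in WT and Y691F, and 0.353 and 0.559 CPM with IgM. ZFP36 and ZFP36L1, which bind AU-rich elements, rose by 2.00 and 2.77 in WT and by 2.12 and 2.30 in Y691F on the log2 scale. ZC3H12C rose by 3.08 and 3.46, and ZC3H12D fell by 2.10 and by 2.44; both belong to the Regnase family of ribonucleases. With IgM, 4 factors were higher and 6 lower in Y691F than in WT (median 0.0091), where 21.9% and 20.2% of all tested genes were. Among the 4 was RC3H2, the introduced gene, higher by 0.77. ZC3H12A, encoding Regnase-1, was lower by a log2 difference of -1.33, and ZC3H12C and ZFP36L2 were higher by 1.02 and 0.57. Untreated, 5 were higher, RC3H2 again among them, and 5 lower (median -0.019), where 15.1% and 16.1% of all tested genes were called. For the interaction 2 were higher and 5 lower (median 0.038), where 14.7% and 11% of all tested genes were. The 2 of 14 called higher are near that share. What these levels contribute to the chemokine values was not tested.

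Across the 12 libraries the genes most like each member were found by the Pearson correlation of log2 CPM, among 10176 genes with a mean of at least 1 CPM. For CCL3 they were HLA-DQA1 (r = 0.998), POLR1C (0.998) and HLA-DRB5 (0.997). HLA-DQA1, a class II antigen presentation chain, went from 85.5 to 462 CPM in WT and from 137 to 409 CPM in Y691F, with its highest mean in WT with IgM. For CCL4 they were SH2D5 (0.999), NR4A3 (0.997) and NR3C1 (0.996). SH2D5 had 1.24 and 13.9 ± 0.905 CPM in WT and 2.97 and 15.8 ± 1.20 CPM in Y691F, untreated and with IgM (SD, n = 3). For CCL22 they were LITAF (0.992), CLECL1 (0.990) and TMCO1 (0.989). LITAF had 16.4 and 60.6 CPM in WT and 28.6 and 59.1 CPM in Y691F.

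These 12 points fall into 4 groups that share treatment and Roquin2 form, and high correlations were common: 1023 genes exceeded 0.95 with CCL3, 708 with CCL4 and 307 with CCL22. The members correlated with each other at 0.983 for CCL3 and CCL4, 0.971 for CCL3 and CCL22 and 0.985 for CCL4 and CCL22.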

How the data were processed

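PolyA+ RNA was sequenced with a strand-keeping dUTP protocol, per the labels' protocols. Per the submitters' processing notes, STAR 2.5.0b, DESeq2 and the build GRCh38 were used; the sources used here name no read counter or annotation. The authors deposited raw read counts and RPKM per gene. Raw counts of the 12 libraries were fitted here in 1 model of 4 groups with edgeR 4.0.16 (R 4.3.3): filterByExpr, TMM scaling and the robust quasi-likelihood test, 5 contrasts, Benjamini-Hochberg adjustment over 15112 genes, called at an adjusted p under 0.05. CPM are TMM-scaled, and the deposited RPKM were used only between genes. The standard error is the log2 fold change over the root of F; intervals are 95%. Ratios were tested by exact permutation. The procedure was tested on simulated data. Sequences come from RefSeq (GRCh38.p14) and GENCODE 29, aligned with Biopython 1.88.

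The members and lists were chosen with earlier results of these data known. Named were the members, copies, tested ligands and receptors, of each other list genes among the 4 with the smallest adjusted p in a comparison, and the 3 genes most like each member. Alternatives were limma 3.58.1, DESeq2 1.42.0, other scalings and filters, a replicate block, other samples in the fit, summed copies and leaving out each library. Same-numbered libraries did not deviate together.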

Additional observations from a re-analysis of the deposited data

Results flagged for a closer look

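The response to IgM differed between the Roquin2 forms for all 3 chemokines, by the interaction term of edgeR's quasi-likelihood fit. The log2 response in Y691F cells minus that in WT cells was -3.03 for CCL3, -2.24 for CCL4 and -0.80 for CCL22. For each gene the untreated level was higher in Y691F cells in 3 of 3 libraries, with no overlap. How much of the difference lies in the untreated level and how much in the stimulated level is given by the comparisons of the report, and its cause was not tested.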

How the results depend on the processing

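Of 406 values recomputed under the alternatives, 405 kept their side of the threshold and, where called, their direction, or stayed within 1.5 times for counts of genes. The exception was CCL4 in Y691F against WT with IgM: with the counts of CCL4 and CCL4L2 summed, its log2 difference was 0.083 (adjusted p = 0.131) in place of 0.42, by construction of the sum. Over all alternatives it ranged from 0.083 to 0.46, that of CCL3 from -0.92 to -0.86, and that of CCL22 from -0.16 to 0.066 (adjusted p 0.269 to 0.989). The CCL22 difference, which was called under none of them, thus changed sign under some. Leaving out 1 library at a time moved CCL3 in untreated Y691F against WT between 1.90 and 2.56 and its interaction between -3.44 and -2.78, the widest such ranges among the members' differences between forms. Depth limits CCL3 and CCL4 most in untreated WT cells, with 56 and 16 reads. Same-numbered libraries did not deviate together (correlations of deviations between -0.062 and 0.030 over 18 pairs), which does not show whether they were handled together. Per kilobase of the GENCODE transcript in place of the deposited RPKM, chosen after seeing the data, the orders of CCL3 and CCL22 in untreated WT and of CCL4 and CCL22 in untreated Y691F cells turned. With the replicate number as a block, the log2 difference of CCL3 with IgM was -0.88 and that of CCL4 0.42, 6364 genes were called in that comparison, and no call of a member changed.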
